A study of Mus musculus with 11 samples.

Results

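The genes described are 38 mouse genes of the endoplasmic reticulum (ER), taken by name out of the 53801 genes in the tables: 18 that fold secretory proteins, 11 of ER-associated degradation (ERAD) and 9 of the Sec61/TRAP translocon. They were chosen by function and not by any measured value, though with earlier results of these data known. All 38 symbols were found in the gene annotation. RNA was sequenced from 11 libraries of hippocampus-derived primary NSCs, taken from mouse embryos at day 14.5. The cultures received either 4HBP at 1 µM or its solvent EtOH (control), and RNA was taken on day 7. In proliferation medium, which contains EGF and bFGF, there were 3 libraries with 4HBP and 3 controls. In differentiation medium, which lacks both growth factors, there were 3 with 4HBP and 2 controls. The study's animal methods name C57BL/6 mice, without saying that the cultures came from them, the sex of the embryos and any genetic change are not given in the sources used here, and nothing says whether replicates were separate cultures, so the p-values measure the spread between these libraries, which may be technical. The compound is called 4-hydroxybenzoic acid in the sample labels, whereas 4-hydroxybenzophenone is the name in the study's text, and 4HBP is used here as in both.

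Proteins that are to be secreted or placed in a membrane enter the ER through the Sec61 channel, with the TRAP complex (Ssr1 to Ssr4) beside it. Inside, chaperones such as BiP (Hspa5), the lectins calreticulin (Calr) and calnexin (Canx) and the protein disulfide isomerases help them fold, and chains that fail to fold are recognised, moved back to the cytosol and degraded by ERAD. When unfolded chains accumulate, 3 sensors of the ER membrane (PERK, IRE1 and ATF6) start the unfolded protein response (UPR), which raises the transcription of many chaperone and ERAD genes and, through PERK, slows translation. ATF6, together with the CCAAT-binding factor NF-Y, acts on a promoter sequence called the ER stress response element (ERSE). The study addressed ER stress in NSCs exposed to 4HBP, so each comparison below asks how the transcripts of these 3 functions differed with 4HBP, or between the media.

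The ERSE was spelled CCAAT, 9 bases of any kind and CCACG. It was searched on both strands of the 250 bases before each RefSeq start site (GRCm38.p6). The UPR raises many chaperone and ERAD genes, so this element is not independent of a choice of genes by function. The ERSE was found in 7 of the 16 folding genes with a promoter entry, in 2 of 10 ERAD genes and in 0 of 7 translocon genes. Of all 27025 genes with an entry, members included, 35 (0.1295%) held it. Hyou1, Manf, Derl1, Sec61a1 and Ssr2 had no entry. The related ERSE-II, spelled ATTGG, 1 base of any kind and CCACG, was found in Herpud1 and in 0.037% of all genes. The letters TGACGTGG (UPRE, a site of XBP1 and ATF6) were held by 0.603% of all genes. TGATGNAAT (CARE, a site of ATF4) was held by 0.910%. Neither was in the promoters of the 33 members. Each match is shown with 20 bases on either side, in the direction of transcription, because these windows show what part of the folding genes share. Capitals mark the match, and a match on the opposite strand reads CGTGG first and ATTGG last.
Hspa5, chr2:34772005-34772063, + strand: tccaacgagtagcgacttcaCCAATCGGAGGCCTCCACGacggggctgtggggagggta
Hsp90b1, chr10:86705618-86705676, - strand: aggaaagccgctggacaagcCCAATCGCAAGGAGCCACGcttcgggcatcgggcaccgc
Hsp90b1, chr10:86705513-86705571, - strand: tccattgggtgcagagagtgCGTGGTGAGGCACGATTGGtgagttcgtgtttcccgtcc
Calr, chr8:84847055-84847113, - strand: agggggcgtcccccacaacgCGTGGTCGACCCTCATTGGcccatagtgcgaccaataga
Canx, chr11:50325780-50325838, - strand: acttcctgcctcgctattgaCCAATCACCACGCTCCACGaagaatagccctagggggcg
Pdia6, chr12:17266471-17266529, + strand: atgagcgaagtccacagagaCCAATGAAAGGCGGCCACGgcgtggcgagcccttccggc
Dnajc3, chr14:118937807-118937865, + strand: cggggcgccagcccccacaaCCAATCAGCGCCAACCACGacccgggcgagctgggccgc
Creld2, chr15:88819500-88819558, + strand: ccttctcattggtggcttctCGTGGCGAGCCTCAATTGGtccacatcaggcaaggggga
Herpud1 (ERSE-II), chr8:94386357-94386407, + strand: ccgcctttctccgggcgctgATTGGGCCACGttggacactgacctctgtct
Syvn1, chr19:6046512-6046570, + strand: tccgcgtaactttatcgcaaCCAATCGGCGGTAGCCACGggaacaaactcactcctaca
Derl3, chr10:75893222-75893280, + strand: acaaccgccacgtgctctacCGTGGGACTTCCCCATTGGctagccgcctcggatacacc

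Counted from the start site, the first base of an ERSE match lay between -212 (Hsp90b1) and -44 (Syvn1), and that of the ERSE-II of Herpud1 at -52. Hsp90b1 held 2 matches, in opposite orientations. The CCAAT letters alone, which are also the first part of the ERSE, were common, in 37.5% of all genes with an entry. Among the members they were in 14 of 16 folding, 9 of 10 ERAD and 3 of 7 translocon genes. Pdia4 and P4hb, which are described below for their values with 4HBP, had no ERSE match and held 3 and 1 CCAAT in the window, and the 160 bases before their start sites are shown with the CCAAT letters, on either strand, in capitals.
Pdia4, chr6:47813513-47813672, - strand: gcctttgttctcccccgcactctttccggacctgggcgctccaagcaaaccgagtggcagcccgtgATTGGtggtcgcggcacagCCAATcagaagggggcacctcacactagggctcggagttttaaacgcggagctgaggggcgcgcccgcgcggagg
P4hb, chr11:120573254-120573413, - strand: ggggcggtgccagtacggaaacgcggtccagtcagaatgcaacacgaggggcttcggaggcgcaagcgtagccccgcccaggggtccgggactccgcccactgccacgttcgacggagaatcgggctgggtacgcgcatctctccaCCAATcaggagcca

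Of the 6 members called with 4HBP in either medium, the gene of Hspa5 (ENSMUSG00000026864) lies at chr2:34771970-34777547 on the + strand, Hyou1 (ENSMUSG00000032115) at chr9:44379490-44392369 on the + strand, Calr (ENSMUSG00000003814) at chr8:84841850-84846934 on the - strand, Pdia4 (ENSMUSG00000025823) at chr6:47796141-47813430 on the - strand, P4hb (ENSMUSG00000025130) at chr11:120560298-120573253 on the - strand and Os9 (ENSMUSG00000040462) at chr10:127095650-127121131 on the - strand (GRCm38). All 6 are protein-coding.

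Library totals lay between 20822921 and 23438463 expected counts, so that 3 counts, taken as the smallest detectable amount, equalled 0.128 to 0.144 CPM (counting error only). No batch or date is given in the labels. Replicates varied more in proliferation than in differentiation medium (edgeR biological coefficient of variation 0.117 and 0.0368), and 4HBP replicate 3 in proliferation medium stood apart from its other two replicates (mean chi-square per gene 23.8 and 21.5, against 5.34 between those). Of the 8 neural stem cell markers, the summed level was 7103 to 8293 normalised CPM in proliferation medium and 4129 to 4268 in differentiation medium. Of this sum, Slc1a3 made up 2775 to 3018 in proliferation and 2521 to 2678 in differentiation medium. Vim had 2485.5 to 3231 and 720 to 839. Prom1 was higher in differentiation medium, with 7.4 to 19.1 and 45.3 to 52.2. In the controls, 6 of the 8 were called lower in differentiation medium and 1 higher, against 31.5% and 31.4% of all genes. The 4HBP libraries gave the same 6 and 1, against 33.4% and 33.8%. The 7 microglia, 5 endothelial and 6 fibroblast and mural markers summed to at most 6.76, 21.4 and 31.4 normalised CPM in any library, with the endothelial markers Cldn5 and Cdh5 at 0 in all of them. The 8 neuron markers summed to 933 to 1067 in both media, of which Map2 alone made up 633 to 886. In the controls, 6 of the 8 were called higher in differentiation medium and 1 lower, against 31.4% and 31.5% of all genes. Their median log2 fold change was 0.65. In the 4HBP libraries 5 were called higher and 1 lower, against 33.8% and 33.4% of all genes, with a median of 0.59. The 7 proliferation genes (Mki67, Top2a, Ccnb1, Cdk1, Ccna2, Bub1 and Aurkb) summed to 625, 730 and 363 with 4HBP and to 740, 935 and 787 in the controls in proliferation medium. In differentiation medium they summed to 116, 121 and 146 with 4HBP and to 86.0 and 114 in the controls. There, 7 of 7 had a log2 fold change above 0 with 4HBP, against 49.6% of all genes. Of the 7, 1 was called higher, against 1.26%.

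TPM, the deposited value per transcript length, allows levels to be compared between genes of a library. Among the folding genes, Calr had the highest mean over the 11 libraries, 756 TPM, followed by Canx with 496, Hsp90b1 (the ER member of the HSP90 family) with 314 and Hspa5 with 267 TPM. At the other end lay Sdf2l1 (a partner of BiP) with 11.2 and the disulfide isomerase Pdia5 with 4.47 TPM. The ERAD genes were lower. Os9, the lectin that recognises trimmed glycans on misfolded proteins, led with a mean of 124 TPM, and Selenos, a selenoprotein of the retrotranslocation complex, followed with 68.9 TPM. Derl3, a member of the derlin family, was close to the floor, with 0 to 5 expected counts in the proliferation libraries and 12 to 21 in the differentiation libraries, and was left out of the test in proliferation medium by the filter on low counts. Of the translocon, Ssr3 (TRAPγ) led with 316 and Ssr2 (TRAPβ) followed with 167 TPM, while Sec61g, the small γ subunit of the channel, had 13.6 TPM. Counts of Sec61b and Sec61g are uncertain, since 20.5% and 15.2% of the 40-base words in their transcripts were also found in transcripts of other genes, chiefly Gm10320 and Gm10177. TPM was not compared between the media, because the 204-base transcript mt-Atp8 took 12.97% to 15.95% of all TPM in proliferation and 4.48% to 4.79% in differentiation libraries. Between libraries, levels are given below as normalised CPM (CPM, the count as a share of the library total, scaled by the TMM factors of edgeR).

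**Figure D1:**
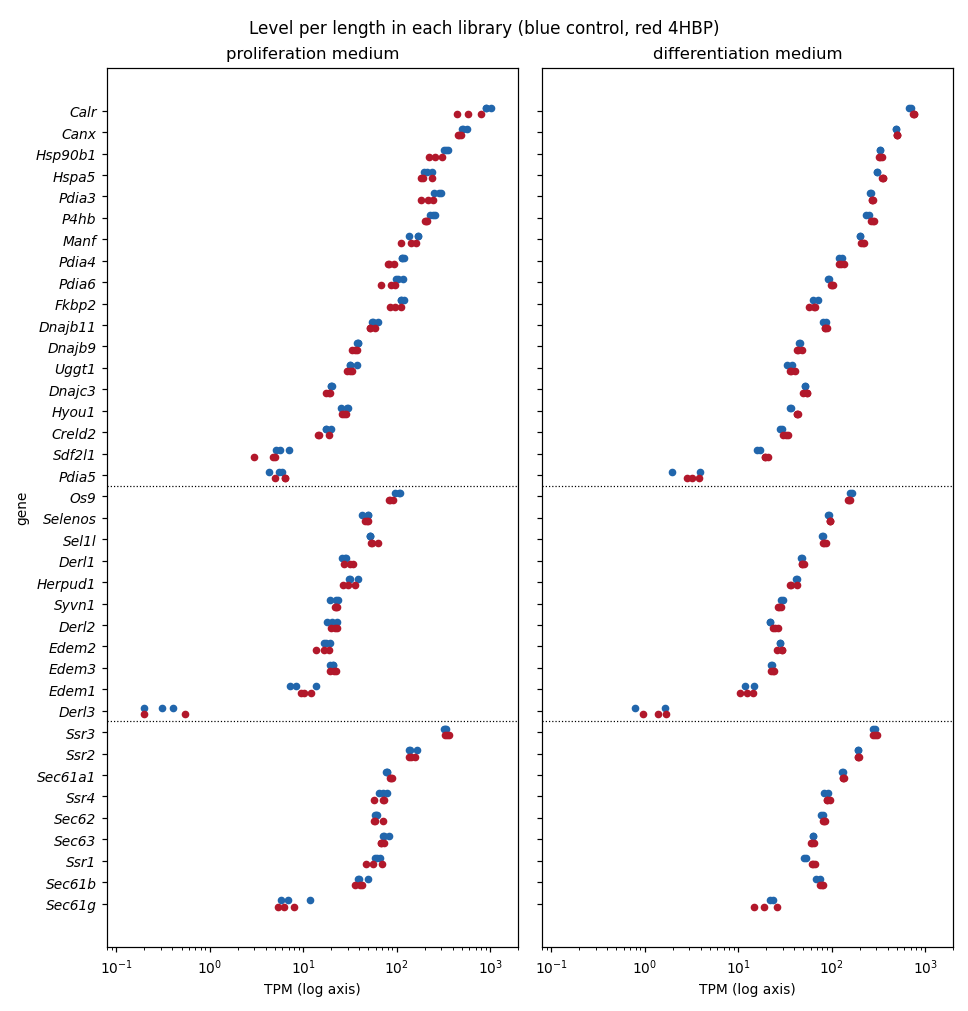
Level of each of the 38 genes in TPM (horizontal log axis), 1 point per library, in proliferation medium (left) and differentiation medium (right), with controls in blue and 4HBP in red. Genes are grouped as folding, ERAD and translocon (dotted lines) and ordered within each by mean TPM. Calr, Os9 and Ssr3 lead their groups, and the libraries at 0 for Derl3 are not drawn.

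In proliferation medium, transcripts of the ER folding genes mostly lay lower with 4HBP, although 1 of the 18 passed the test. Of the 37 members tested, 2 were called at an adjusted p under 0.05 and both were lower, Pdia4 among the folding genes and Os9 among the ERAD genes, and 7.43% of the 14449 genes tested were called, 3.74% higher and 3.69% lower. The share of members called was not above that of all genes. The log2 fold change was below 0 in 16 of 18 folding genes, against 49.8% of all genes, with a median of -0.21, against 0.001 over all genes. Of the folding genes, 7 had all 3 values with 4HBP below all 3 control values (Hsp90b1, Calr, Pdia3, Pdia4, P4hb, Dnajb9 and Sdf2l1) and 0 had them above, whereas 15.1% of all genes were lower and 16.2% higher in this way. The ERAD genes were spread around 0, with a median log2 fold change of 0.02 over the 10 tested, Sel1l and Edem1 above and Edem2 and Os9 below all the controls. The translocon genes had a median of -0.06, and the groups overlapped in all 9. The unadjusted p was under 0.05 for 8 of the 37 members and for 25.1% of all genes.

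Pdia4, a disulfide isomerase with several thioredoxin domains, had 164, 136 and 129.7 normalised CPM in 4HBP replicates 1, 2 and 3 and 191, 195 and 209 in the controls. All values with 4HBP lay below all control values. The log2 fold change was -0.47 ± 0.10 (SE), with a 95% interval from -0.69 to -0.25 (edgeR quasi-likelihood test, Benjamini-Hochberg adjusted p = 0.024). Os9 had 154, 149 and 154 normalised CPM with 4HBP and 187, 198 and 176 in the controls, again without overlap, and a log2 fold change of -0.30 ± 0.07 (SE, edgeR adjusted p = 0.0376). With 1 library left out, the log2 fold change stayed between -0.58 and -0.40 for Pdia4 and between -0.34 and -0.25 for Os9, while the edgeR adjusted p lay between 0.00973 and 0.0945 and between 0.0298 and 0.155. Pdia4 lost its call without 4HBP replicate 2 or any 1 of the 3 controls, and Os9 without 4HBP replicate 1 or 2 or control replicate 1 or 2.

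Calr, the calcium-binding lectin chaperone, had the largest difference among the folding genes and was not called. It had 836, 582 and 413 normalised CPM with 4HBP and 910.1, 918 and 1025.5 in the controls. The 3 values with 4HBP lay below the controls but were far from each other, with a mean of 610 ± 213 (SD, n = 3) against 951 ± 64.6 (SD, n = 3). The log2 fold change was -0.64 with a 95% interval from -1.11 to -0.17 (edgeR adjusted p = 0.0961). Hspa5, which encodes BiP, the HSP70-type chaperone of the ER, had 342, 270.4 and 243 normalised CPM with 4HBP and 299, 279 and 343 in the controls. These ranges overlapped, and the log2 fold change was -0.11 with a 95% interval from -0.40 to 0.18 (edgeR adjusted p = 0.667). Without 4HBP replicate 3, it was 0.0007 (edgeR adjusted p = 0.998).

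The remaining folding genes of high level were lower by less than their spread allowed to be called. Hsp90b1 had 633, 518 and 416 normalised CPM with 4HBP against 669, 664 and 738 in the controls, and Pdia3 (ERp57, the disulfide isomerase that works with Calr and Canx) had 497, 424 and 334 against 546, 510.3 and 603. Both had a log2 fold change of -0.40 (edgeR adjusted p = 0.110 and 0.106). Canx, the membrane-bound counterpart of Calr, had 741, 677 and 635 against 760.4, 728 and 802 normalised CPM, which overlapped (log2 fold change -0.16, edgeR adjusted p = 0.291). P4hb, the founding disulfide isomerase, had 334, 306 and 264 against 370.5, 346 and 365 normalised CPM without overlap (log2 fold change -0.26, edgeR adjusted p = 0.126). Pdia5 and Hyou1 were the 2 folding genes with a log2 fold change above 0, at 0.14 and 0.03. The fold changes of the remaining 9 lay between -0.50 for Sdf2l1 and -0.12 for Dnajb11, a co-chaperone of BiP.

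The 3 replicates with 4HBP differed from each other in how far the folding genes lay below the controls. The median log2 ratio of the 18 genes to the mean of the controls, with 0.5 CPM added, was -0.07, -0.23 and -0.45 in 4HBP replicates 1, 2 and 3, with 10, 16 and 18 of the 18 genes below that mean. 4HBP replicate 3 was the lowest of the 6 libraries in 15 of 18 folding genes, in 1 of 11 ERAD genes and in 4 of 9 translocon genes, and control replicate 3 the highest in 13 of 18 folding genes. Summed over the folding genes, the level was 4263, 3546 and 2984 normalised CPM with 4HBP and 4450.3, 4315 and 4857 in the controls. The ERAD sums were close together, 700.3, 709 and 743 against 713, 729.8 and 728, and so were those of the translocon, 1587, 1575 and 1515 against 1523, 1540 and 1572. Without 4HBP replicate 3, 15 of 18 folding genes were still below 0, with a median log2 fold change of -0.11. The same replicate had the lowest sum of the proliferation genes (363) and of the 8 oligodendrocyte lineage markers (2124 normalised CPM, against 3239 and 3549 with 4HBP and 3364 to 3999 in the controls). The 7 astrocyte markers summed to 3729 to 4389 with 4HBP and 5412 to 6677 in the controls. Of the 7, 4 were called lower, against 3.69% of all genes. The part of these differences in the folding genes was not tested, and in bulk RNA fewer cells of a type cannot be told apart from less RNA per cell.

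**Figure D2:**
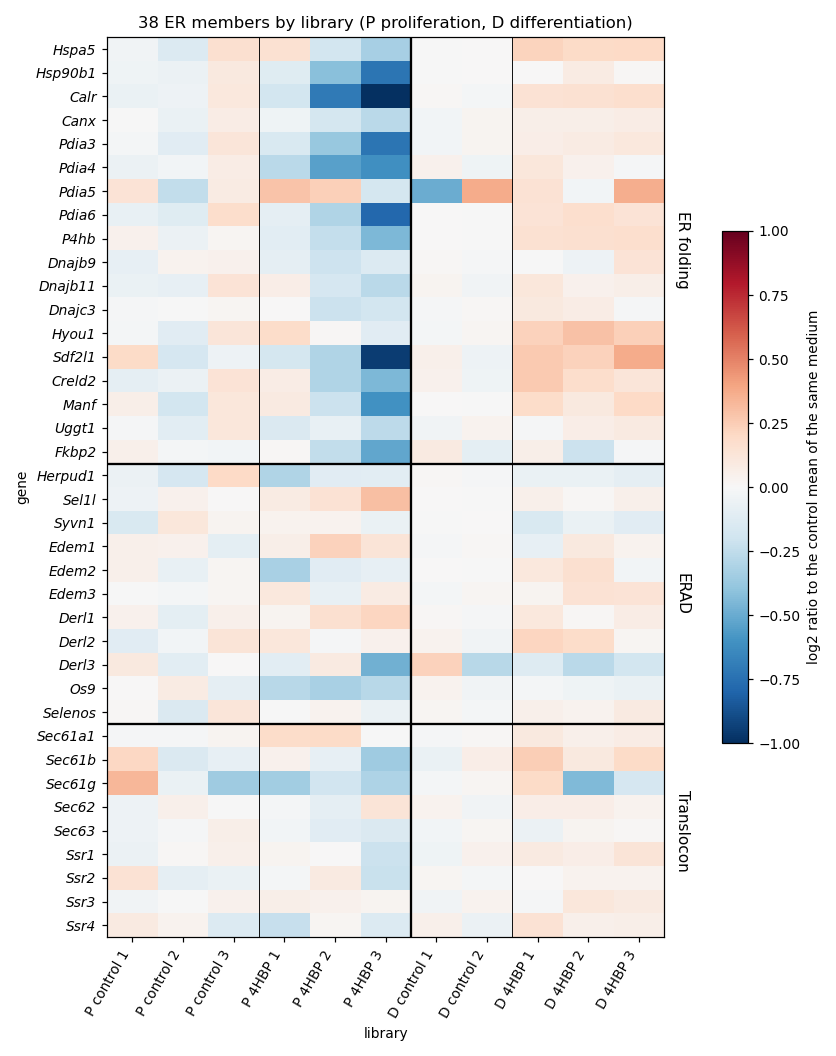
Log2 ratio of each gene to the mean of the controls of its medium, with 0.5 CPM added (colour, limited to -1 to 1), for the 38 genes (rows, grouped by function) in the 11 libraries (columns, P for proliferation and D for differentiation medium). In 4HBP replicates 1, 2 and 3 of proliferation medium, 10, 16 and 18 of the 18 folding rows are blue, with medians of -0.07, -0.23 and -0.45. The medians there are 0.03, 0.03 and -0.07 for the ERAD rows and -0.02, 0.0035 and -0.14 for the translocon rows. In the 4HBP libraries of differentiation medium, 16, 15 and 15 of the 18 folding rows and 7, 8 and 8 of the 9 translocon rows are pale red, against 6, 7 and 6 of the 11 ERAD rows.

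In differentiation medium the folding genes were slightly higher with 4HBP, and the replicates lay close together. Of the 38 members tested, 4 were called, all of them folding genes and all higher, Hspa5, Hyou1, Calr and P4hb, while 2.56% of the 15484 genes tested were called, 1.26% higher and 1.30% lower. The log2 fold change was above 0 in 17 of 18 folding genes, against 49.6% of all genes, with a median of 0.11, against -0.001 over all genes. In 12 of 18 folding genes all 3 values with 4HBP lay above both control values, and in 0 below, whereas 17.4% of all genes were higher and 15.5% lower in this way. None of the ERAD genes was called, with 4 of 11 above and 2 of 11 below without overlap and a median log2 fold change of 0.03, and none of the translocon genes was called, with 4 of 9 above and a median of 0.05. The unadjusted p was under 0.05 for 13 of the 38 members and for 15.9% of all genes. The 4 called log2 fold changes lay between 0.15 and 0.25.

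Hspa5 had 434, 425 and 427 normalised CPM with 4HBP and 369.8 and 372 in the controls. The groups were apart by more than the spread within them, with means of 429 ± 4.73 (SD, n = 3) and 371 ± 1.64 (SD, n = 2). The log2 fold change was 0.20 ± 0.03 (SE), with a 95% interval from 0.14 to 0.27 (edgeR adjusted p = 0.00246). Hyou1, the large chaperone and nucleotide exchange factor of BiP, had 99.7, 104 and 100.4 normalised CPM against 83.7 and 85.8 (log2 fold change 0.25, edgeR adjusted p = 0.00443). Calr had 699, 705 and 712 normalised CPM with 4HBP and 641 and 627 in the controls (log2 fold change 0.15, edgeR adjusted p = 0.0137). P4hb had 331, 334 and 335 against 299 and 297 normalised CPM (log2 fold change 0.15, edgeR adjusted p = 0.0171). In these 4 genes the libraries with 4HBP all lay above the controls.

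With 1 library left out, Hspa5 kept its call each time (edgeR adjusted p between 0.00524 and 0.0495, the highest without control replicate 1), and Hyou1 lost it without control replicate 1 (adjusted p = 0.0892). Calr and P4hb were called only with all 5 libraries or without 4HBP replicate 1, with an edgeR adjusted p up to 0.114 (without control replicate 2) and 0.127 (without control replicate 1) otherwise. The calls also depended on the method. A single edgeR fit over all 11 libraries, with a common spread, called none of the 38 members and no gene of any kind, with an unadjusted p under 0.05 for 1 member and 644 genes. On the same 5 libraries, limma on log2(CPM+1) called none either, with an unadjusted p under 0.05 for 8 members and 2010 genes, whereas DESeq2 called 275 genes and 4 members, all of them folding genes. The log2 fold changes of the 4 genes lay between 0.15 (Calr) and 0.26 (Hyou1) in the fit over 11 libraries and between 0.14 and 0.24 in limma.

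Sdf2l1 had the largest fold change among the folding genes that were not called, 10.6, 10.4 and 11.5 normalised CPM with 4HBP against 9.08 and 8.46 (log2 fold change 0.30, edgeR adjusted p = 0.171). Pdia6 had 112, 114 and 112 against 102 and 102 normalised CPM (log2 fold change 0.14, edgeR adjusted p = 0.0868), and Manf, a secreted factor held in the ER by BiP, had 90.7, 85.3 and 91.4 against 79.9 and 79.4 (0.15, edgeR adjusted p = 0.0789). Pdia4 overlapped between the groups, with 172, 163 and 157 against 163 and 154 normalised CPM (log2 fold change 0.04, edgeR adjusted p = 0.701). Fkbp2, a prolyl isomerase, was the only folding gene with a log2 fold change below 0, at -0.06. Os9 also overlapped, with 216, 213 and 209 normalised CPM with 4HBP and 225 and 214 in the controls (log2 fold change -0.05, edgeR adjusted p = 0.543).

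**Figure D3:**
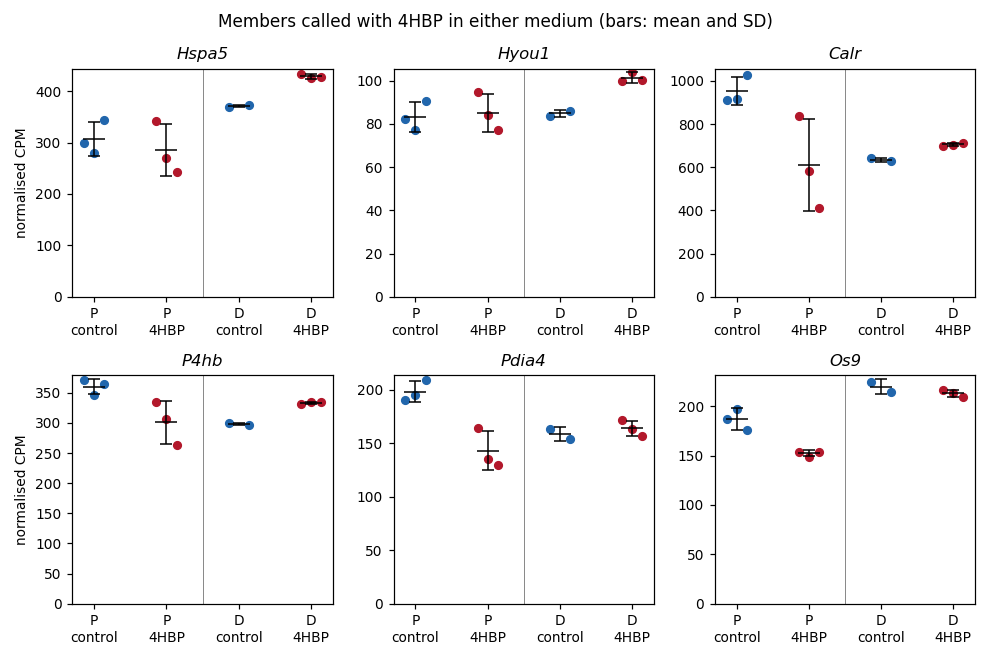
Normalised CPM of the 6 genes called with 4HBP in either medium, 1 point per library (blue control, red 4HBP, P proliferation and D differentiation medium), with the group mean and SD as black bars and an axis from 0. Pdia4 and Os9 are lower with 4HBP in proliferation medium, and Hspa5, Hyou1, Calr and P4hb are higher with 4HBP in differentiation medium, where Hspa5 lies at 425 to 434 against 369.8 and 372.

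The effect of 4HBP on the folding genes was compared between the media by an interaction test over the 11 libraries, given as the effect in proliferation minus that in differentiation medium. It was called for 2 of 38 members, Pdia4 and P4hb, both in the negative direction, against 4.49% of 15920 genes in either direction, 2.48% in the negative and 2.01% in the positive one. For Pdia4 it was -0.52 ± 0.12 (SE, edgeR adjusted p = 0.0314), and for P4hb -0.42 ± 0.11 (SE, edgeR adjusted p = 0.0492). The interaction was below 0 in 18 of 18 folding genes, with a median of -0.35, against 50.5% of all genes and a median of -0.004. It was above 0 in 4 of 11 ERAD genes and in 1 of 9 translocon genes (Sec61a1), so that 8 of 9 translocon genes also lay below 0, or 6 of 9 with library totals in place of TMM. In 15 of 18 folding genes the 4HBP effect was below 0 in proliferation and above 0 in differentiation medium, as it was in 2 of the 10 ERAD genes tested in both media and in 4 of 9 translocon genes. The reverse pattern was seen in 0 folding, 1 ERAD and 0 translocon genes. The largest interactions were those of Sdf2l1 (-0.81) and Calr (-0.80), which were not called (edgeR adjusted p = 0.128 and 0.112). Neither Hspa5 (-0.31, 95% interval -0.66 to 0.03, edgeR adjusted p = 0.294) nor Os9 (-0.25, adjusted p = 0.102) was called. With 1 library left out, the interaction of Hspa5 lay between -0.47 and -0.21, and it was called without 4HBP replicate 1 of proliferation medium (-0.47, edgeR adjusted p = 0.0371) and in no other case. The calls of Pdia4 and P4hb were lost when single libraries were left out, that of Pdia4 in 8 of 11 cases (adjusted p up to 0.199, without control replicate 2 in differentiation medium) and that of P4hb in 9 (up to 0.235, without the same library). Pdia4 kept its call without 4HBP replicate 1, 4HBP replicate 3 or control replicate 3 of proliferation medium, and P4hb without 4HBP replicate 1 or 3 of that medium.

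**Figure D4:**
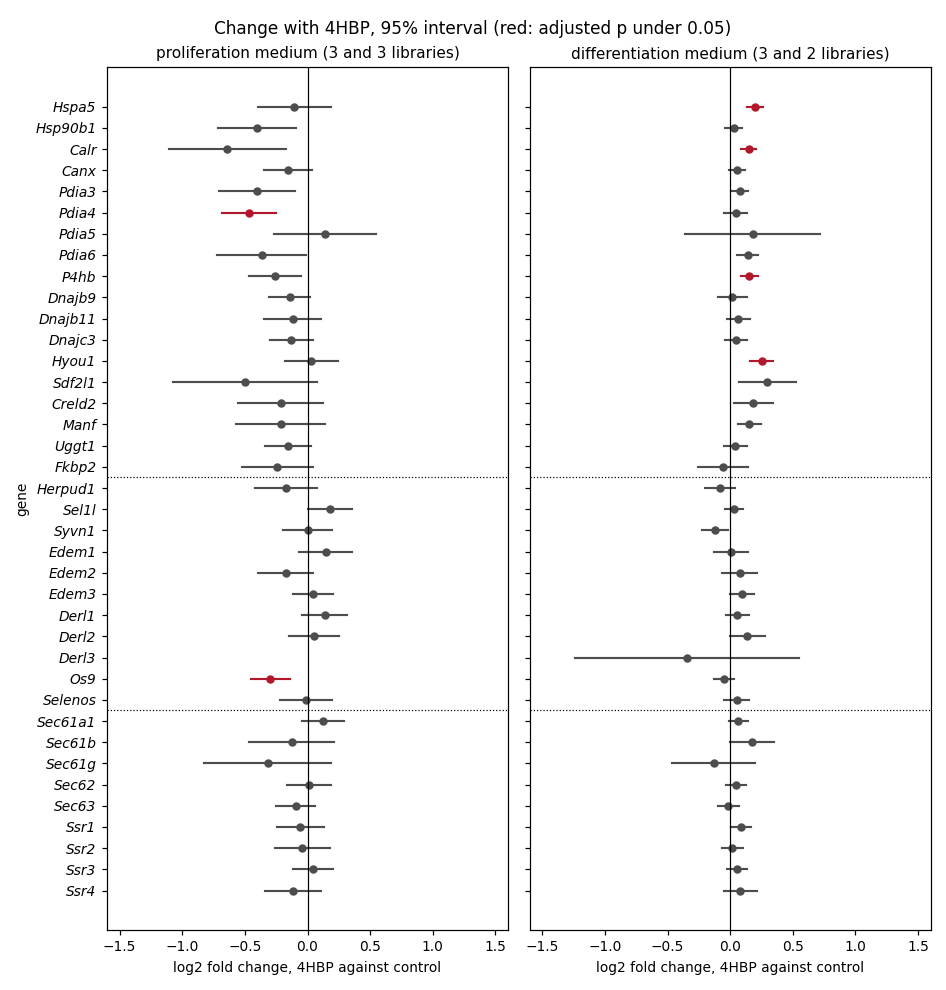
Log2 fold change of each gene with 4HBP against control (points) with its unadjusted 95% interval (bars), in proliferation medium (left, 3 against 3 libraries) and differentiation medium (right, 3 against 2), red where the edgeR adjusted p was under 0.05. Folding genes (top) lie mostly left of 0 with wide intervals on the left, with a median of -0.21, and right of 0 with narrow intervals on the right, with a median of 0.11.

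The ranges of the folding genes with an ERSE match and of those without one overlapped in both media. In proliferation medium, the 7 genes with a match had log2 fold changes from -0.64 to -0.11 (median -0.21), and the 9 without had values from -0.50 to 0.14 (median -0.24). In differentiation medium the ranges were 0.03 to 0.20 (median 0.14) and -0.06 to 0.30 (median 0.07). Of the 4 genes called in differentiation medium Hspa5 and Calr held a match, P4hb did not and Hyou1 had no promoter entry.

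The ERAD genes serve several steps, and with 4HBP in proliferation medium 6 of the 10 tested had a log2 fold change above 0. Sel1l, the scaffold of the ubiquitin ligase complex, had 191, 199.95 and 223 normalised CPM with 4HBP and 174, 186 and 181 in the controls of proliferation medium, above all of them but not called (log2 fold change 0.18, edgeR adjusted p = 0.192). Its partner Syvn1 (HRD1, the ligase itself) had 48.0, 47.9 and 44.7 against 42.1, 50.7 and 47.6, with a log2 fold change of 0.00. Neither passed the test. Herpud1, a ligase cofactor that the UPR is known to raise, had a log2 fold change of -0.17 (edgeR adjusted p = 0.369). The mannosidase-like proteins that mark glycoproteins for disposal lay at 0.14 for Edem1, -0.17 for Edem2 and 0.04 for Edem3 on the log2 scale, and the derlins, membrane proteins of the exit channel, at 0.14 for Derl1 and 0.05 for Derl2. Selenos was close to 0 (-0.01). In differentiation medium the ERAD genes lay between -0.12 for Syvn1 and 0.14 for Derl2, apart from Derl3 at -0.34 with 12 to 21 counts.

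None of the translocon genes was called with 4HBP in either medium. With 4HBP in proliferation medium, the channel subunits Sec61a1, Sec61b and Sec61g lay at 0.13, -0.13 and -0.32 on the log2 scale, the Sec62 and Sec63 accessory proteins at 0.01 and -0.09, and the TRAP subunits between -0.11 for Ssr4 and 0.04 for Ssr3. Ssr3 had 727, 722 and 713 normalised CPM with 4HBP and 682, 696 and 719 in the controls, and Ssr2 had 96.3, 104 and 83.6 against 108, 91.8 and 93.0, with overlap in both. The smallest edgeR adjusted p of the 9 was 0.331. In differentiation medium 7 of 9 had a log2 fold change above 0, up to 0.18 for Sec61b, which had 19.0, 17.1 and 18.2 against 15.2 and 16.7 normalised CPM (edgeR adjusted p = 0.307).

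Beyond the 38 genes, lists of related genes were read in the same fits. Of 34 other folding genes tested, 1 rose and 0 fell with 4HBP in proliferation medium, with a median log2 fold change of 0.01. The 1 that rose was Ero1a, the oxidase that recharges disulfide isomerases, with 68.4, 86.0 and 108 normalised CPM against 46.8, 45.7 and 61.2 (log2 fold change 0.77, edgeR adjusted p = 0.0290). Of 29 other ERAD genes, 1 fell, Fbxo2, a glycan-binding F-box protein, with 31.6, 28.1 and 17.5 against 46.9, 43.9 and 50.1 (-0.87, edgeR adjusted p = 0.0259). Of 49 other translocation and glycosylation genes, 1 rose, Krtcap2, a subunit of the oligosaccharyltransferase, with 40.5, 53.1 and 55.3 against 30.1, 29.2 and 30.0 normalised CPM (0.74, edgeR adjusted p = 0.0103). In the interaction all 3 were called, at 0.84 for Ero1a, -0.99 for Fbxo2 and 0.70 for Krtcap2 (edgeR adjusted p = 0.0491, 0.0239 and 0.0214). The number called in each list was not above the share of all genes. In differentiation medium 1 of these genes was called, Rpn1, an oligosaccharyltransferase subunit, with 179.5, 176 and 177 normalised CPM against 153 and 159 (0.18, edgeR adjusted p = 0.0173), and the log2 fold change was above 0 in 44 of the 49 translocation genes (median 0.07), in 25 of the 34 folding genes (median 0.05) and in 13 of the 29 ERAD genes (median -0.01), against 49.6% of all genes. With 1 library left out, each of these calls was lost at least once, with an edgeR adjusted p up to 0.132 for Ero1a, 0.0987 for Fbxo2 and 0.0631 for Krtcap2 in proliferation medium, up to 0.193, 0.146 and 0.113 in the interaction, and up to 0.237 for Rpn1 (without control replicate 1 of differentiation medium).

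Of 14 genes of the UPR, 4 rose and 0 fell with 4HBP in proliferation medium, against 3.74% of all genes that were called higher. The 14 were sensors and transcription factors, and also Trib3, Ppp1r15a, Mbtps1 and Mbtps2, which are neither. Atf4, the factor translated when PERK is active, had 488, 509 and 440 normalised CPM against 298, 253 and 396 (log2 fold change 0.60, edgeR adjusted p = 0.0414). Trib3, a target of ATF4, had 13.3, 20.1 and 36.5 against 5.90, 4.49 and 9.82 (1.79, edgeR adjusted p = 0.0270). Both were above all control values in each library with 4HBP. Xbp1, the target of IRE1 splicing, had 27.3, 21.7 and 20.9 against 16.2, 16.1 and 17.3 (0.50, edgeR adjusted p = 0.0419), and the sensor Atf6 had 94.4, 98.3 and 101 against 82.0, 79.5 and 83.3 (0.27, edgeR adjusted p = 0.0431). Ddit3 (CHOP) had 20.7, 26.6 and 45.4 against 13.8, 10.1 and 22.6 normalised CPM, which overlapped (1.00, edgeR adjusted p = 0.0990). The genes of PERK (Eif2ak3) and IRE1 (Ern1) lay at -0.01 and 0.13. These 4 calls were lost without control replicate 1 or 2 or 4HBP replicate 2 of proliferation medium (edgeR adjusted p up to 0.160 for Atf4, 0.120 for Trib3, 0.156 for Xbp1 and 0.169 for Atf6), and those of Xbp1 and Atf6 also without 4HBP replicate 1 or control replicate 3, and that of Atf4 without 4HBP replicate 1. In differentiation medium only Xbp1 was called among the 14 (0.25, edgeR adjusted p = 0.0321, and 0.0561 to 0.188 with any 1 library left out), and the interaction was called for none of them, with values of 0.48 for Atf4 and 1.92 for Trib3 (edgeR adjusted p = 0.165 and 0.117). 4HBP replicate 3, in which the folding genes were lowest, had the highest Trib3 and Ddit3 of the 6 libraries and the lowest Atf4 and Xbp1 of the 3 with 4HBP.

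Between the media most of the 38 genes differed, as most genes did. In the controls, the 8 oligodendrocyte lineage markers summed to 3364 to 3999 normalised CPM in proliferation and 7563 to 7898 in differentiation medium. The 7 astrocyte markers summed to 5412 to 6677 and to 7824 to 7851. Of these, 7 of 8 and 5 of 7 were called higher and 0 and 2 lower, against 31.4% and 31.5% of all genes. The part of these differences in the 38 genes was not tested. A change in the mix of cells cannot be told apart from a change within cells. In the control libraries 26 members were called between differentiation and proliferation medium, 13 higher and 13 lower in differentiation, against 62.9% of 15308 genes (31.4% higher and 31.5% lower). By function, 4 folding genes were higher and 9 lower, 6 ERAD genes higher and 2 lower, and 3 translocon genes higher and 2 lower. In the 4HBP libraries 23 members were called, against 67.2% of 15050 genes (33.8% higher and 33.4% lower), and the folding genes were 7 higher and 2 lower, the ERAD genes 7 and 2 and the translocon genes 3 and 2. The share of members called was thus close to the share of all genes in both. Single libraries moved the counts by function. In the controls, the folding genes called higher were 2 without control replicate 1 of proliferation medium or without either control of differentiation medium, and the ERAD genes called lower were 0 without control replicate 1 and 1 without control replicate 2 of differentiation medium. Without that control replicate 1, 8 members were called higher. In the 4HBP libraries, the folding genes were 12 higher and 2 lower without 4HBP replicate 1 of proliferation medium and 7 higher and 5 lower without 4HBP replicate 3, and with library totals in place of TMM they were 11 higher and 2 lower. The ERAD genes called lower were 0 without 4HBP replicate 1 of differentiation medium and 1 without any other library but 4HBP replicate 3 of proliferation medium, and without 4HBP replicate 1 of differentiation medium 1 translocon gene was called lower.

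Among the folding genes, Sdf2l1 had the largest rise. It had 4.83, 3.65 and 4.02 normalised CPM in the proliferation controls and 9.08 and 8.46 in the differentiation controls (log2 fold change 1.08), and 3.62, 3.29 and 1.92 against 10.6, 10.4 and 11.5 with 4HBP (1.90). Dnajc3, the BiP co-chaperone p58IPK, rose by 0.96 in the controls and by 1.15 with 4HBP on the log2 scale. Hspa5 rose by 0.28 in the controls (edgeR adjusted p = 0.0146) and by 0.60 with 4HBP (edgeR adjusted p = 0.00137). In the controls its call was lost without control replicate 1 of proliferation medium (adjusted p = 0.0563) or without either control of differentiation medium (0.0818 and 0.0891). Fkbp2 was lower in differentiation medium, with 39.2, 37.3 and 37.2 against 18.6 and 16.3 normalised CPM in the controls (log2 fold change -1.11) and -0.92 with 4HBP. Pdia5 was lower too, with 7.22, 5.42 and 6.94 against 1.81 and 3.71 in the controls (-1.23) and -1.17 with 4HBP. The value in the controls was -0.81 without control replicate 1 and -1.84 without control replicate 2 of differentiation medium, and it was called in both cases (edgeR adjusted p = 0.0322 and 0.00127).

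Calr, Hsp90b1, Pdia3, Pdia4, Pdia6, P4hb and Dnajb9 were called lower in differentiation medium in the controls, with log2 fold changes from -0.62 to -0.18, and in none of them was the change called in the 4HBP libraries, where it lay between -0.10 and 0.22. The test of that difference is the interaction given above, which passed for Pdia4 and P4hb and for no other member. In the controls, Dnajb9 was near the threshold (edgeR adjusted p = 0.0493). There, 8 folding genes were called lower without control replicate 2 or 3 of proliferation medium, against 9 with all libraries. Fewer than 9 were also called lower without control replicate 1 or without control replicate 2 of differentiation medium. The call of P4hb in the controls was lost without control replicate 2 of differentiation medium (edgeR adjusted p = 0.0508). The comparisons share libraries with those of 4HBP against control, so these values are the same difference seen from the other side. Calr had 910.1, 918 and 1025.5 normalised CPM in the proliferation controls, 641 and 627 in the differentiation controls (log2 fold change -0.58, edgeR adjusted p = 6.41e-05), and with 4HBP 836, 582 and 413 against 699, 705 and 712 (0.22, edgeR adjusted p = 0.366).

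Most ERAD genes and the Sec61 subunits were higher in differentiation medium, and the interaction was called for none of them. Sel1l rose in differentiation medium by 0.47 in the controls and 0.34 with 4HBP on the log2 scale, and Selenos, with 33.1, 29.7 and 35.7 against 51.9 and 50.8 normalised CPM in the controls, by 0.65 and 0.74. Os9 rose by 0.24 in the controls and 0.50 with 4HBP, and its call in the controls was lost without control replicate 1 of differentiation medium (edgeR adjusted p = 0.126). Ssr3 fell by 0.63 in the controls, from 682, 696 and 719 to 439 and 459.7 normalised CPM, and by 0.60 with 4HBP. Sec61g rose by 1.08 and 1.29 and Sec61b by 0.42 and 0.74, with the reservation on their counts, and Sec61a1 by 0.30 and 0.26. The call of Sec61b in the controls was lost without control replicate 2 of proliferation medium (edgeR adjusted p = 0.0508) or control replicate 1 or 2 of differentiation medium (0.0562 and 0.156). Ssr1, Ssr2 and Ssr4, which form 1 complex with Ssr3, were called in neither (log2 fold changes from -0.09 to 0.15). Derl3 rose by 1.83 and 2.10, from 0 to 5 counts to 12 to 21 counts, and lost its call without control replicate 1 (edgeR adjusted p = 0.176) or 4HBP replicate 1 (0.0536) of differentiation medium.

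**Figure D5:**
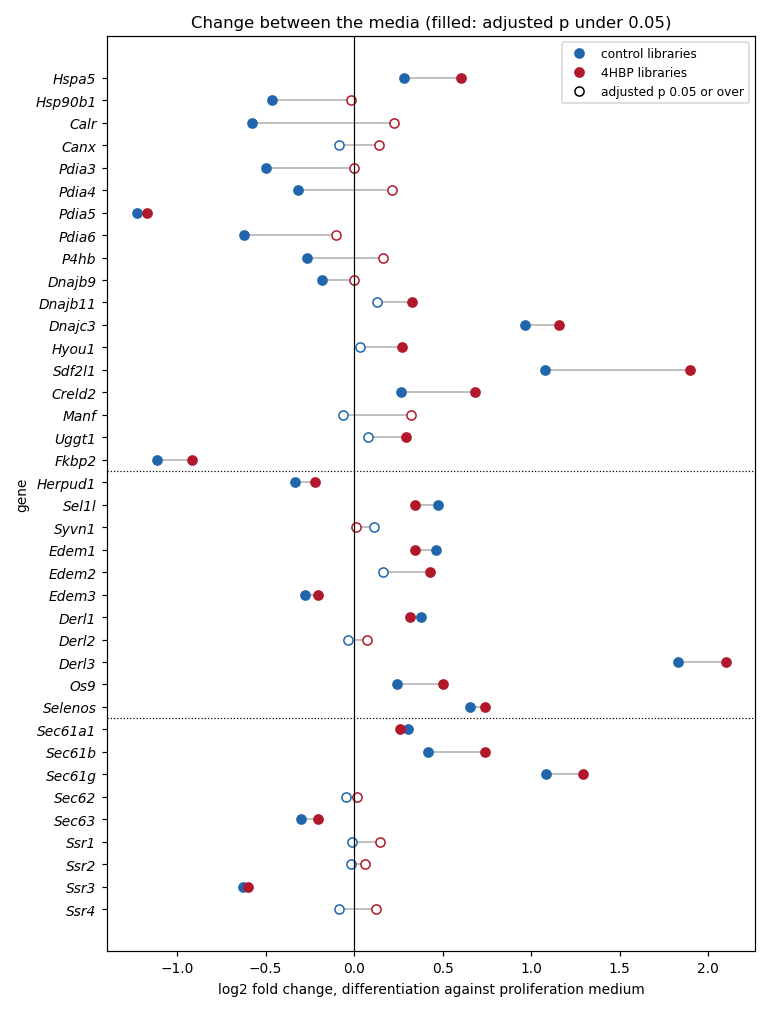
Log2 fold change of each gene in differentiation against proliferation medium in control libraries (blue) and 4HBP libraries (red), filled where the edgeR adjusted p was under 0.05, with a grey line between the 2 values of a gene. In the folding genes (top) the red point lies to the right of the blue one throughout, from -0.58 to 0.22 for Calr, and so it does in 8 of 9 translocon genes, by little for Ssr3 at -0.63 and -0.60, whereas in 4 of 11 ERAD genes it lies to the left, as for Sel1l at 0.47 and 0.34.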

How the data were processed

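RNA was sequenced by the authors as stranded, poly(A)-selected paired reads. Per the labels and the study's methods, reads were trimmed with cutadapt and quantified with RSEM 1.3.0 and Bowtie2 2.2.9 on mm10 (GRCm38) with GENCODE vM17. The deposited tables hold the expected count per gene (RSEM's share of the fragments, not normalized), TPM (per length and depth) and FPKM (per length and depth), with transcript lengths. The authors' TPM values were used only to compare levels between genes, and the deposited FPKM values were not used. Symbols came from GENCODE vM21 of the same build (99.8% of identifiers matched) and promoters from RefSeq GRCm38.p6.

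Expected counts were rounded, filtered (filterByExpr by group), and scaled by TMM, and edgeR 4.0.16 (quasi-likelihood test, two-sided) was run on the libraries compared only, with Benjamini-Hochberg adjustment over all genes tested in each of 5 comparisons. The fits were tested on simulated counts with 200 genes changed 2-fold. This is larger than any change called with 4HBP or in the interaction among the members, and changes as small as those were not simulated. The members, lists and alternatives were chosen with earlier results of these data known. Values per library are given for members called with 4HBP or in the interaction, for Hspa5, for the 2 of each function with the highest TPM and the 3 with the largest change between the media called in both, and others named were chosen after their values were seen. Samples were grouped by their titles.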

Additional observations from a re-analysis of the deposited data

Results flagged for a closer look

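Pdia4 was singled out because the effect of 4HBP on it differed between the media in the test of the difference itself: the effect in proliferation minus that in differentiation medium was -0.52 on the log2 scale (edgeR adjusted p = 0.0314). All 3 values with 4HBP lay below the controls in proliferation medium, and the groups overlapped in differentiation medium.

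P4hb was singled out by the same test, with a difference of -0.42 (edgeR adjusted p = 0.0492). Its values with 4HBP lay below all controls in proliferation medium and above both in differentiation medium. The 2 calls among 38 members were near the share of all genes called, 4.49%. Both calls were lost when single libraries were left out, as given above, and limma on log2(CPM+1) called neither gene.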

How the results depend on the processing

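The directions of the folding genes held under every alternative tried: 15 to 17 of 18 lay below 0 in proliferation medium, 16 to 18 above 0 in differentiation medium and 17 or 18 below 0 in the interaction. The counts of calls moved. In proliferation medium (1074 genes and 2 members) DESeq2 called 1623 genes and 4 members, library totals in place of TMM 1 member, no filter on low counts 5 members, a single fit over all 11 libraries 2668 genes and 6 members, and limma on log2(CPM+1) 437 genes and 0 members (6 at an unadjusted p under 0.05). In differentiation medium (396 genes and 4 members) no filter gave 778 genes, and limma and the fit over 11 libraries gave 0 genes and 0 members (2010 and 644 genes at an unadjusted p under 0.05). In the interaction (715 genes and 2 members) no filter gave 1616 genes and 8 members, limma 354 genes and 0 members (7 at an unadjusted p under 0.05), and voom with weights by medium 4 members. With 1 library left out, the range was 107 to 1429 genes and 0 to 4 members in proliferation medium, 77 to 288 genes and 1 to 4 members in differentiation medium, and 117 to 1100 genes and 0 to 8 members in the interaction. Hspa5 in proliferation medium lay between -0.2582 and 0.0007 with 1 library left out, changing sign without 4HBP replicate 3. The causes were not tested. Between the media, the counts of all genes and of all members called stayed within 1.5 times, while counts by function and direction did not, as given beside them, and in the controls library totals and limma gave 5468 higher against 4141 lower and 5477 against 3915, where TMM gave 4810 against 4821.

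The same replicate numbers occur in each group, but nothing says that they mark a shared culture or day. Deviations of same-numbered libraries from their group means correlated by -0.06 to 0.06. With so few libraries per group, this cannot decide whether the numbers mark a shared culture or day. The main fits did not pair the libraries. With the replicate block, 534 genes and 0 members were called in proliferation medium (6 members at an unadjusted p under 0.05). In differentiation medium it called 745 genes and 5 members, all of them folding genes and higher, and in the interaction 1 member.

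Derl3, with 0 to 21 counts, was limited by depth.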
